A study of Homo sapiens with 12 samples.

Results

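The 10 genes of the BCL2 family chosen by symbol were followed through phorbol ester treatment of pancreatic cancer cells: MCL1, BCL2A1 and BCL2L1, which hold cells alive, the BH3-only genes BCL2L11, PMAIP1, BBC3, BIK and BID, and the pore formers BAX and BAK1. The genes were taken by name and none was left out for its values, but the list was chosen with earlier results of these data known. Of these 10, 9 had a probe set of their own among the 19775 genes measured, and all 9 passed the filter on low signal. The single probe set of BBC3, which codes for PUMA, carries 3 symbols in the annotation, the others being microRNAs, so no value is given for it.

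RNA was measured on 12 Affymetrix expression arrays, 3 for each of 4 groups. BxPC-3 cells, a line from a primary pancreatic tumour, received PMA (phorbol 12-myristate 13-acetate, an activator of protein kinase C) at 1 µM for 4 h, in DMSO at 0.1%, or were left untreated. AsPC-1 cells, a line from ascites of a patient with pancreatic cancer, received PMA in the same way or were left untreated. All 4 groups spent the night before in 2.5% foetal calf serum. The replicates were cells of passages 7, 9 and 11 for BxPC-3 and of passages 8, 10 and 12 for AsPC-1, with the same passage number in the PMA and the untreated group. Each line stands for 1 tumour and the treatment for 1 dose and 1 time. The sources used here do not say whether untreated cells received DMSO.

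The BCL2 family decides whether the outer mitochondrial membrane stays closed. BAX and BAK1 open pores in it, which release cytochrome c and switch on caspases. MCL1, BCL-XL (the main product of BCL2L1) and BCL2A1 bind and restrain the pore formers, and BH3-only proteins such as BIM (from BCL2L11), NOXA (from PMAIP1), PUMA, BIK and BID either occupy these guardians or act on BAX and BAK1 directly. NOXA binds MCL1 and BCL2A1 in particular, while BIM binds all the guardians. BCL2A1 and MCL1 are known as genes that rise early after growth or inflammatory signals, and pancreatic cancers are known to lean on MCL1 and BCL-XL. Several of these proteins are also controlled by phosphorylation and turnover, which RNA does not show.

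One array stood apart. Across genes, the log2 signals of AsPC-1 PMA replicate 1 correlated at 0.921 with the other arrays of its group and at 0.964 with the passage 8 array of untreated AsPC-1. That untreated array was likewise nearer to its PMA partner than to its own group, at 0.950. Deviations from the group means correlated at 0.416 between the passage 8 arrays, against 0.208 and 0.160 at passages 10 and 12. Whether the PMA array alone or both arrays of passage 8 were unusual was not tested. The calls and the values that AsPC-1 PMA replicate 1 moves most are given with and without it. Without AsPC-1 untreated replicate 1 instead, 0 members were called after PMA in AsPC-1. The count was also 0 without AsPC-1 untreated replicate 2 or 3 or AsPC-1 PMA replicate 2 or 3. Epithelial markers were above the filter for 7 of 7 genes, and their summed signal was 20590 to 22235 in BxPC-3 PMA arrays, against 16475 to 19271 in BxPC-3 untreated arrays. In AsPC-1 it was 22305 to 29654 after PMA, against 25155 to 27955 untreated. Of the 6 leukocyte markers 4 had a probe set. PTPRC, which defines leukocytes, lay between 1.12 and 9.86 and was above the filter on 1 array, while CD14 was above it on 12, CD3E on 11 and LYZ, which reached 2666 in AsPC-1, on 6. Of 5 endothelial markers PECAM1, at 21.6 to 63.6, was above it on 12 arrays, and VWF, CDH5, KDR and CLDN5 on 1 to 4. Of 6 fibroblast markers LUM, at 22.8 to 3396, was above it on 12 arrays, DCN on 11 and the other 4 on 1 to 7. The ACTB 3′ to 5′ probe set ratio, a sign of RNA or labelling quality, was 1.84, 1.99 and 2.02 in BxPC-3 PMA arrays, against 2.56, 2.95 and 4.14 in BxPC-3 untreated arrays, with no overlap. AsPC-1 arrays lay at 1.79 to 2.32 after PMA, against 2.22 to 2.27 untreated. The same ratio for GAPDH did overlap in BxPC-3, at 1.00, 1.07 and 1.02 after PMA, against 1.04, 1.06 and 1.12 untreated. The part of these ratios, and of the epithelial markers, in the BxPC-3 results was not tested.

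In BxPC-3, PMA raised 4 of the 9 measured members and lowered 0. BCL2A1, PMAIP1, BIK and BID rose, a set that holds 1 guardian and 3 BH3-only genes. The make-up of this set depends on the threshold. The guardians MCL1 and BCL2L1 changed by 1.21 and 1.06 on the log2 scale without overlap, more than BID at 0.72, but missed it. Both were called with the passage as a block. In AsPC-1, 1 of the 9 rose, the guardian MCL1, and 0 fell. Of all 16110 genes tested, 6.01% were called in BxPC-3 (2.61% as higher, 3.4% as lower) and 1.94% in AsPC-1 (1.21% as higher, 0.732% as lower). A gene was called where limma's moderated test gave a Benjamini-Hochberg adjusted p under 0.05 over all tested genes. BCL2A1 entered the test only through its PMA arrays, so its own call and its place in these counts follow in part from the filter. The list of members was also chosen with earlier results of these data known, so its counts and medians are not a blind sample. The median log2 change of the 9 was 1.06 in BxPC-3 and 0.39 in AsPC-1, where the median of all tested genes was -0.00085 in BxPC-3 and -0.097 in AsPC-1.

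**Figure D1:**
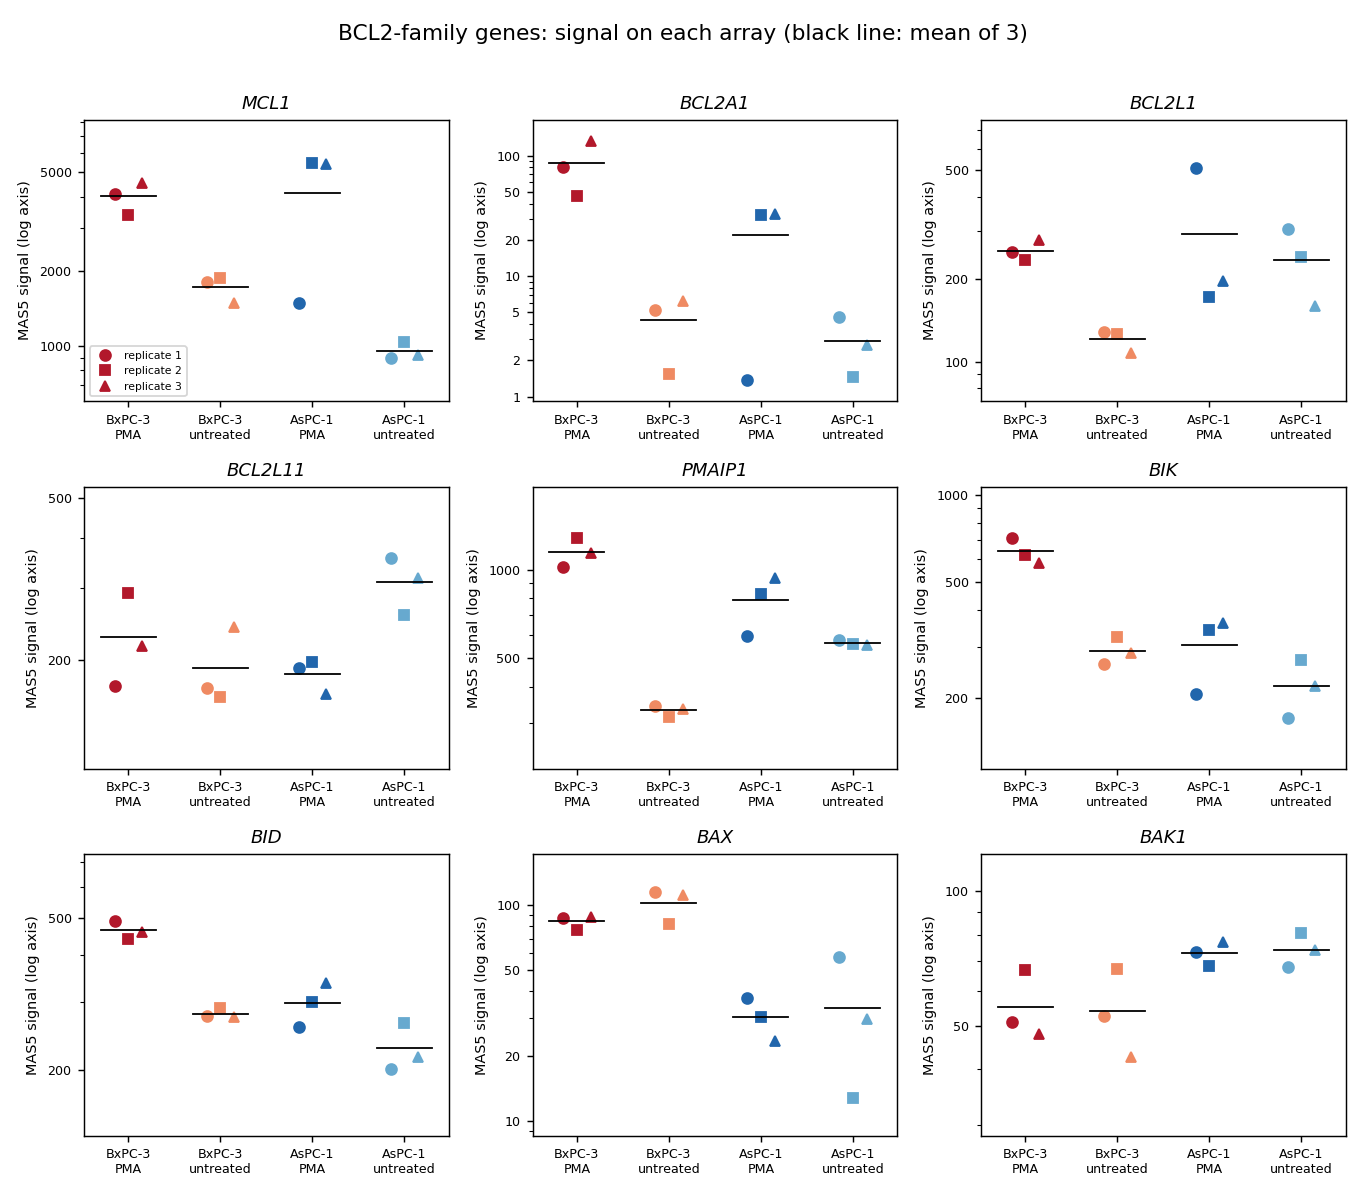
Signal on each of the 12 arrays for the 9 measured genes (log axis, arbitrary units; 3 points per group, black line at their mean). MCL1 signals of the BxPC-3 PMA arrays lay at 3388 to 4543, above the BxPC-3 untreated arrays at 1495 to 1875, while BAK1 overlapped between treatments in both lines.

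**Figure D2:**
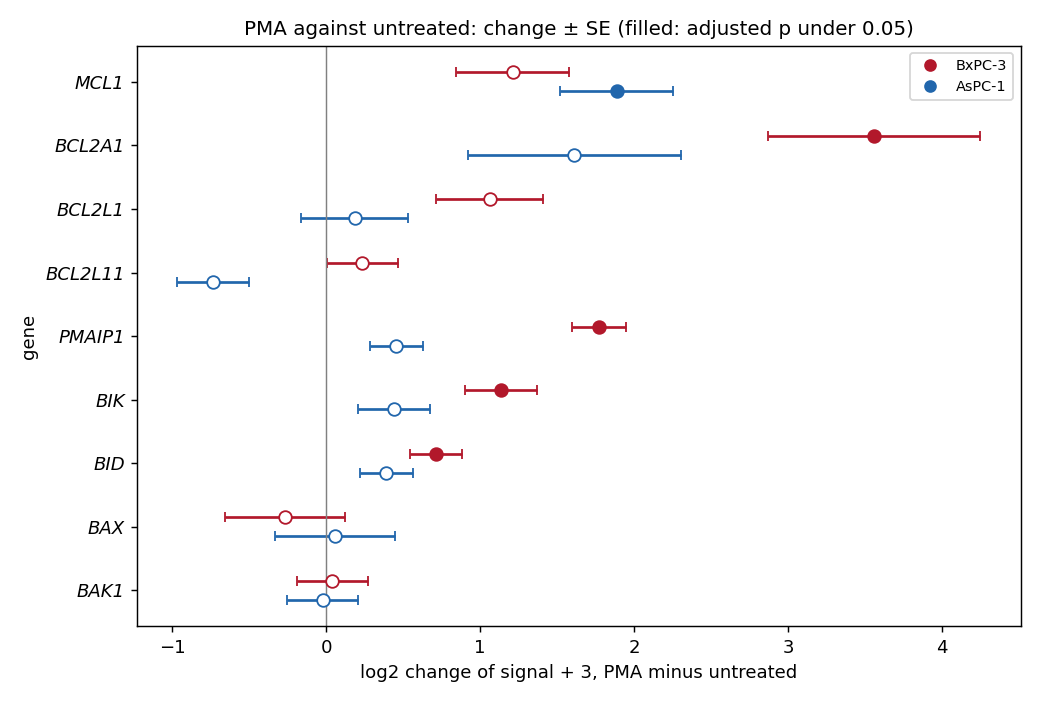
Log2 change of signal + 3 after PMA for each member, by line, with the standard error of the fit as the bar. PMAIP1 had a change of 1.77 in BxPC-3 and 0.46 in AsPC-1, whereas MCL1 had 1.21 in BxPC-3 and 1.89 in AsPC-1.

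The array that stood apart bears on both lines, because the 4 groups share 1 estimate of the spread. Without AsPC-1 PMA replicate 1, 6 of 9 members were called higher in BxPC-3, where 15.1% of all genes were then called. In AsPC-1, 5 were then called higher and 1 lower, against 19.7% of all genes. By overlap alone, the 3 PMA arrays lay wholly apart from the 3 untreated arrays for 6 of 9 members in BxPC-3, where the share of all genes was 39%, and for 3 of 9 in AsPC-1, where it was 14.5%.

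The promoters of the 2 members with the largest log2 changes in BxPC-3, BCL2A1 on chromosome 15 and PMAIP1 on chromosome 18, are shown because they differ in composition. Each runs over the 250 bases upstream of the annotated RefSeq start in GRCh38.p14, BCL2A1 from chr15:79971197-79971446 on the minus strand and PMAIP1 from chr18:59899746-59899995 on the plus strand. Capitals mark matches to the motifs described after them.
BCL2A1: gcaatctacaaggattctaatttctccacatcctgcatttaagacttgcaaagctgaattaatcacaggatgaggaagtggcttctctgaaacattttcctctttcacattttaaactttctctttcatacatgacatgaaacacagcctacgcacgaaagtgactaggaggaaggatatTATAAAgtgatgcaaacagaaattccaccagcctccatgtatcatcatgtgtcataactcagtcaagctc
PMAIP1: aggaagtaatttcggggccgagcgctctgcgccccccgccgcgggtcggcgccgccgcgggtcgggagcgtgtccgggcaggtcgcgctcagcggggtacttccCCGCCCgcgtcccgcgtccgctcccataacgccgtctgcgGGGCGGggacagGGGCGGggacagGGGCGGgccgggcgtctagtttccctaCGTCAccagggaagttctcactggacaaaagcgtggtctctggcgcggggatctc

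The BCL2A1 window held 38.8% G and C, the PMAIP1 window 72.8%, and the median of all promoters in the RefSeq table was 58%. Of 35116 promoters, 10.7% held TATAAA on either strand, and in BCL2A1 it lay 70 to 65 bases upstream of the start. GGGCGG, the GC box, was in 42.6% of all promoters and matched 4 times in PMAIP1, 3 times on the gene's strand and 1 time on the other. TGACG, a half-site of the cyclic AMP response element, was in 21.2% and lay 55 to 51 bases upstream in PMAIP1 on the opposite strand. Other members held these motifs too. TATAAA was also in BCL2L1, GGGCGG in BAK1, BAX, BCL2L11 and BID, and TGACG in BAX and BCL2L1. TGANTCA, the AP-1 motif, was in 6.57% of all promoters and, among 8 members with 13 promoters in the table, in that of BBC3. The NF-kB consensus was in 8.04% of all promoters and in 0 of the members. GC boxes and TATAAA did not overlap each other, and a match is a match of letters in this window, nothing more.

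MCL1, a short-lived guardian whose protein is lost within hours when its synthesis stops, was well above the filter on all 12 arrays. BxPC-3 cells gave 4108, 3388 and 4543 signal units after PMA, against 1817, 1875 and 1495 untreated. In every passage the PMA array was above its untreated partner. AsPC-1 cells gave 1493, 5445 and 5420 after PMA, against 900.2, 1045 and 922.4 untreated. Here too the groups did not overlap, but replicate 1 stayed far below its PMA partners.

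The log2 change of MCL1 was 1.89 ± 0.37 in AsPC-1 (standard error of the fit, n = 3 against 3, limma adjusted p = 0.0230), or 3.70-fold on the scale of signal + 3. Without AsPC-1 PMA replicate 1 it was 2.51 (limma adjusted p = 1.93e-07). The call was lost when any of the other 5 AsPC-1 arrays was left out, with limma adjusted p between 0.0518 and 0.124. In BxPC-3 the change was 1.21 ± 0.37 and did not pass (limma adjusted p = 0.0715). It passed with the passage as a block (limma adjusted p = 0.0231) and without AsPC-1 PMA replicate 1 (limma adjusted p = 5.13e-05).

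The gene has 6 probe sets. In AsPC-1 the changes of these 6 MCL1 probe sets were positive, between 1.47 and 2.15 on the log2 scale, and 5 were called in a fit over 31252 probe sets. In BxPC-3 the 6 were also positive, but ran between 0.05 and 1.75, with 1 called. The probe set with the largest change in BxPC-3 was not called in either line.

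BCL2A1, a guardian best known from blood cells and as an NF-kB target, was near the floor of the array until PMA was given. BxPC-3 PMA arrays gave 80.4, 46.3 and 132.8 signal units, against 5.19, 1.53 and 6.19 in BxPC-3 untreated arrays. All 3 PMA arrays of this line exceeded the filter, set at each array's 40th percentile (8.18 to 10.2), and 0 untreated arrays did. AsPC-1 PMA arrays gave 1.37, 31.9 and 32.9, against 4.55, 1.46 and 2.69 in AsPC-1 untreated arrays. So 2 of the 3 AsPC-1 PMA arrays lay above every untreated array and replicate 1 lay below them all.

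The log2 change of BCL2A1 in BxPC-3 was 3.56 ± 0.69 (limma adjusted p = 0.00931), or 11.8-fold on signal + 3. Its size depends on the pseudocount because the untreated signals are near the floor: it was 4.05 with 1 added and 2.25 with 16 added, and was called both times. Without BxPC-3 PMA replicate 3 the change was 3.20 and the call was lost (limma adjusted p = 0.0553). In AsPC-1 the change was 1.61 ± 0.69 (limma adjusted p = 0.257), and 2.62 without replicate 1 of the PMA group (limma adjusted p = 0.00129). A single probe set represents the gene.

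BCL2L1 gives BCL-XL, and by splicing also the pro-apoptotic BCL-XS, which these probe sets were not used to separate. BxPC-3 cells had 250.7, 234.7 and 277.4 signal units after PMA, against 128.2, 125.8 and 107.3 untreated, with no overlap. The change of 1.06 ± 0.35 missed the threshold (limma adjusted p = 0.0918). It passed with the passage as a block (limma adjusted p = 0.0176) and without AsPC-1 PMA replicate 1 (limma adjusted p = 0.00335). AsPC-1 cells had 511.3, 172.1 and 196.7 after PMA, against 304.5, 241.2 and 159.9 untreated, so the groups overlapped and the change was 0.19 ± 0.35 (limma adjusted p = 0.848). Without PMA replicate 1, the highest of these 6 arrays, it was -0.30 (limma adjusted p = 0.422). The 3 tested probe sets of BCL2L1 lay between 0.78 and 1.06 in BxPC-3, with 1 called, and between -0.30 and 0.19 in AsPC-1, with 0 called.

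The product of PMAIP1 is NOXA, which neutralises MCL1 and BCL2A1. For PMAIP1, BxPC-3 cells gave 1019, 1278 and 1142 signal units after PMA, against 345, 316 and 336.3 untreated. Every PMA array was far above every untreated one. AsPC-1 cells gave 595.6, 828 and 939.7 after PMA, against 575, 560 and 556.4 untreated. The AsPC-1 groups did not overlap either, but replicate 1 exceeded the highest untreated array only narrowly.

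PMAIP1 rose by 1.77 ± 0.17 on the log2 scale in BxPC-3 (limma adjusted p = 0.000116), or 3.41-fold on signal + 3, and was called in each of the 12 fits that left out 1 array, with adjusted p up to 0.00163. In AsPC-1 the change was 0.46 ± 0.17 (limma adjusted p = 0.199), and 0.64 without PMA replicate 1 (limma adjusted p = 0.00385). The second probe set gave 2.06 in BxPC-3, also called, and 0.63 in AsPC-1, not called. The difference between the lines in this response was tested directly and stands with the comparison of the lines.

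BIK, a BH3-only protein of the endoplasmic reticulum and mitochondria, had 713.2, 623.1 and 581.3 signal units in BxPC-3 PMA arrays, against 261.2, 324.3 and 284.8 in BxPC-3 untreated arrays. The change was 1.13 ± 0.23 (limma adjusted p = 0.0125), or 2.19-fold on signal + 3. All 3 PMA arrays lay above all 3 untreated ones. The call was lost without BxPC-3 untreated replicate 1 or 3 or BxPC-3 PMA replicate 1, with limma adjusted p between 0.0615 and 0.0660. In AsPC-1 the signals were 205.3, 341.1 and 362.7 after PMA, against 170.6, 268.7 and 219.1 untreated. They overlapped, with a change of 0.44 ± 0.23 (limma adjusted p = 0.375) that was 0.70 without PMA replicate 1 (limma adjusted p = 0.0180).

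BID, which caspase 8 cleaves to carry death receptor signals to mitochondria, had 489.3, 439.2 and 459.5 signal units in BxPC-3 PMA arrays, against 277, 289.3 and 275 in BxPC-3 untreated arrays. These groups lay apart, with a change of 0.72 ± 0.17 (limma adjusted p = 0.0254). That call did not hold when any 1 of the 6 BxPC-3 arrays was left out, with limma adjusted p between 0.0645 and 0.106. Nor was it shared by the other 2 BID probe sets, which gave 0.10 and 0.50, or by the mean of the probe sets, at 0.44 (limma adjusted p = 0.256). AsPC-1 had 259.3, 300.8 and 336.9 after PMA, against 201.4, 265.7 and 215.8 untreated. The change there was 0.39 ± 0.17 (limma adjusted p = 0.265), and 0.49 without PMA replicate 1 (limma adjusted p = 0.0396).

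BCL2L11 is the gene of BIM and was not called in either line. BxPC-3 cells had 172.7, 292.5 and 216.2 signal units after PMA, against 170.4, 161.9 and 241.2 untreated, which overlapped. AsPC-1 cells had 191.4, 197.7 and 164.6 after PMA, against 356, 258.3 and 318 untreated, and each of these PMA arrays was below each untreated one. Neither change passed: it was 0.23 ± 0.23 in BxPC-3 (limma adjusted p = 0.628) and -0.73 ± 0.23 in AsPC-1 (limma adjusted p = 0.131). Without AsPC-1 PMA replicate 1 the AsPC-1 change was -0.76 and passed as lower (limma adjusted p = 0.0397). Over the 7 BCL2L11 probe sets the AsPC-1 changes lay between -0.73 and 0.20, with 4 negative and 0 called.

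**Figure D3:**
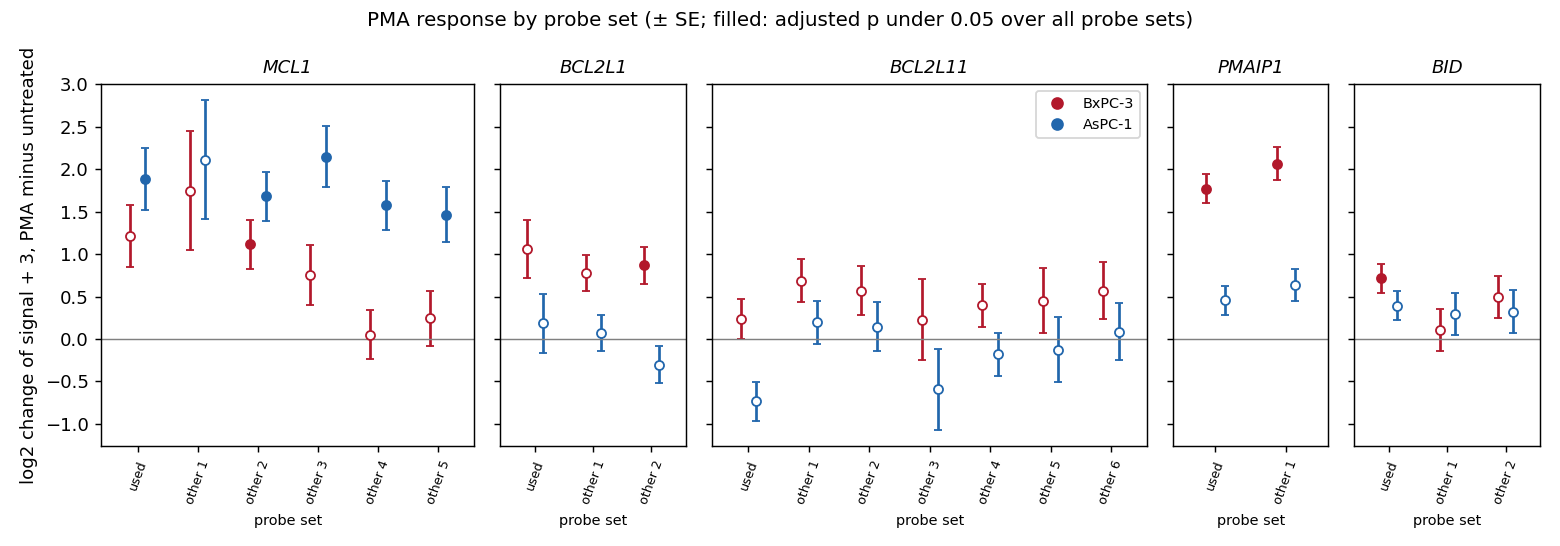
Log2 change of signal + 3 after PMA (± SE) for every tested probe set of MCL1, BCL2L1, BCL2L11, PMAIP1 and BID, BxPC-3 and AsPC-1 in separate colours; filled points have an adjusted p under 0.05 over all probe sets. MCL1 probe sets lay at 1.47 to 2.15 in AsPC-1 and at 0.05 to 1.75 in BxPC-3.

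The pore formers were not called in either line. BAX had 87.1, 77 and 88.5 signal units in BxPC-3 PMA arrays, against 115.4, 81.9 and 111.7 in BxPC-3 untreated arrays, which overlapped. Its change there was -0.27 ± 0.39 (limma adjusted p = 0.761). In AsPC-1 it had 37.2, 30.4 and 23.4 after PMA, against 57.8, 12.8 and 29.8 untreated, with a change of 0.06 ± 0.39 (limma adjusted p = 0.965). BAK1 had 51.2, 66.8 and 48 in BxPC-3 PMA arrays, against 52.8, 66.9 and 42.7 in BxPC-3 untreated arrays. In AsPC-1 it had 73.3, 68.2 and 77 after PMA, against 67.7, 80.9 and 73.9 untreated. The BAK1 changes were 0.04 ± 0.23 in BxPC-3 and -0.02 ± 0.23 in AsPC-1, and both groups overlapped in both lines. These tests do not show that BAX or BAK1 stayed the same, since a standard error of 0.39 or 0.23 leaves room for a change.

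Paired by passage, the 6 members MCL1, BCL2A1, BCL2L1, PMAIP1, BIK and BID were higher after PMA in 3 of 3 BxPC-3 passages. Their log2 changes in single passages of that line ran from 0.60 for BID at passage 9 to 3.88 for BCL2A1 at passage 11. In AsPC-1, MCL1, PMAIP1, BIK and BID were higher in 3 of 3 passages, BCL2A1 and BCL2L1 in 2 of 3, and BCL2L11 in 0 of 3. The share of all genes higher in 3 of 3 passages was not computed, so these counts are not read as particular to the members. Groups that lie wholly apart, which puts all 3 passages in 1 direction, were found for 39% of all genes in BxPC-3 and 14.5% in AsPC-1. At passage 8 of AsPC-1, the passage of the array that stood apart, MCL1 changed by 0.73, against 2.38 and 2.55 at passages 10 and 12. PMAIP1 changed by 0.05 there, against 0.56 and 0.75.

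**Figure D4:**
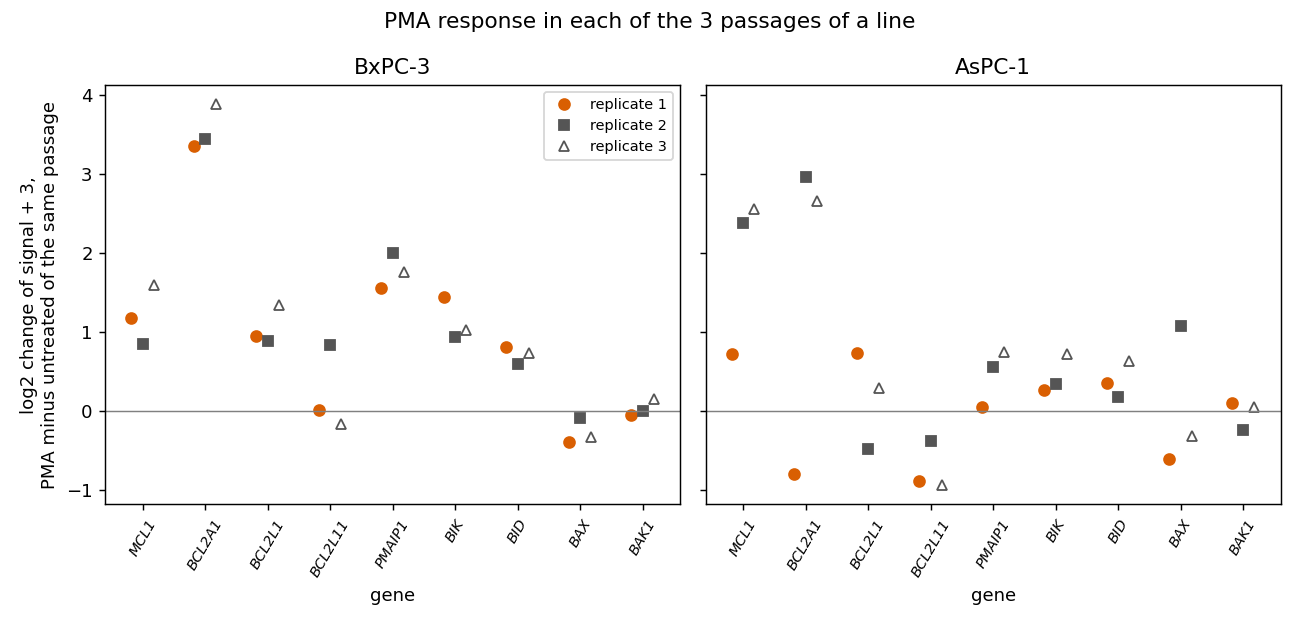
Log2 change of signal + 3, PMA minus the untreated array of the same passage, for each member in each of 3 passages per line. In BxPC-3 the BCL2A1 changes were 3.35, 3.44 and 3.88, and in AsPC-1 they were -0.79, 2.97 and 2.66.

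The lines were set against each other after PMA and untreated. These comparisons use the same arrays as the PMA comparisons, so they are not independent of them. After PMA, 5 of 9 members were higher in BxPC-3 than in AsPC-1 and 0 were lower, where 33.7% of all genes were called (18.4% as higher, 15.3% as lower). The arrays of the lines lay wholly apart for 6 of 9, against 43.5% of all genes. These 6 were the 5 called members and BAK1, which was lower in BxPC-3, at -0.39, and not called. The called members were BAX at 1.41 ± 0.39 (limma adjusted p = 0.0123), BCL2A1 at 2.22 ± 0.69 (limma adjusted p = 0.0231), BIK at 1.11 ± 0.23 (limma adjusted p = 0.00224), BID at 0.63 ± 0.17 (limma adjusted p = 0.0106) and PMAIP1 at 0.56 ± 0.17 (limma adjusted p = 0.0227). BCL2A1 was above the filter on 3 BxPC-3 PMA and 2 AsPC-1 PMA arrays and on 0 untreated arrays. It thus entered the test through the BxPC-3 PMA group compared here. Its call and its place among these 5 follow in part from the filter, and its difference has no firm size. Without AsPC-1 PMA replicate 1 the BCL2A1 difference was 1.22 and was not called (limma adjusted p = 0.0509). The other 4 were still called without that array, PMAIP1 at 0.37 (limma adjusted p = 0.0405), BIK at 0.85, BID at 0.53 and BAX at 1.55. The PMAIP1 call was lost without BxPC-3 PMA replicate 2 or 3 (limma adjusted p = 0.0909 and 0.0653), and that of BCL2A1 also without BxPC-3 PMA replicate 1 or 3 (limma adjusted p = 0.0614 and 0.0999).

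MCL1 after PMA averaged 4013 ± 583 signal units in BxPC-3 and 4120 ± 2274 in AsPC-1 (SD, n = 3 each), a log2 difference of 0.17 ± 0.37 (limma adjusted p = 0.768). Without AsPC-1 PMA replicate 1 the difference turned to -0.45 and passed as lower in BxPC-3 (limma adjusted p = 0.0243). With all arrays kept, the difference was negative on 5 of the 6 MCL1 probe sets, and 1 of these, at -0.90, was called.

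In untreated cells, 3 of 9 members differed between the lines, where 32.7% of all genes did (17% as higher in BxPC-3, 15.8% as lower). The arrays lay wholly apart for 7 of 9, against 50.9% of all genes. BAX was higher in BxPC-3, at 103 ± 18.4 signal units against 33.5 ± 22.7 in AsPC-1 (SD, n = 3 each), with a log2 difference of 1.73 ± 0.39 (limma adjusted p = 0.00355). Both BAX probe sets were called higher in BxPC-3 under both conditions. PMAIP1 was lower in BxPC-3, at 332 ± 14.9 against 564 ± 9.88 in AsPC-1, a difference of -0.76 ± 0.17 (limma adjusted p = 0.00399). Thus the order of the lines for PMAIP1 was opposite before and after PMA. Its call after PMA held in 9 of 11 processing settings and was lost with median centring, at 0.43 (limma adjusted p = 0.181).

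BCL2L11 was also lower in untreated BxPC-3, at 191 ± 43.6 against 311 ± 49.2 in AsPC-1 (SD, n = 3 each), a difference of -0.70 ± 0.23 (limma adjusted p = 0.0325). That call was lost without AsPC-1 untreated replicate 1 or 3 or BxPC-3 untreated replicate 1 or 2 (limma adjusted p between 0.0836 and 0.125), and the other 6 BCL2L11 probe sets were not called. BCL2L1 was at 120 ± 11.4 in BxPC-3 and 235 ± 72.5 in AsPC-1, a difference of -0.90 ± 0.35 that missed the threshold on the probe set used (limma adjusted p = 0.0617) and passed with the replicate number as a block (limma adjusted p = 0.0373). The 2 other BCL2L1 probe sets were called lower in BxPC-3, at -1.25 and -1.47. Untreated MCL1 was at 1729 ± 205 in BxPC-3 and 956 ± 77.8 in AsPC-1, a difference of 0.85 ± 0.37 (limma adjusted p = 0.0939), which passed without AsPC-1 PMA replicate 1 (limma adjusted p = 0.00013). BAK1 did not pass in either comparison of the lines, with -0.39 after PMA and -0.45 untreated.

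**Figure D5:**
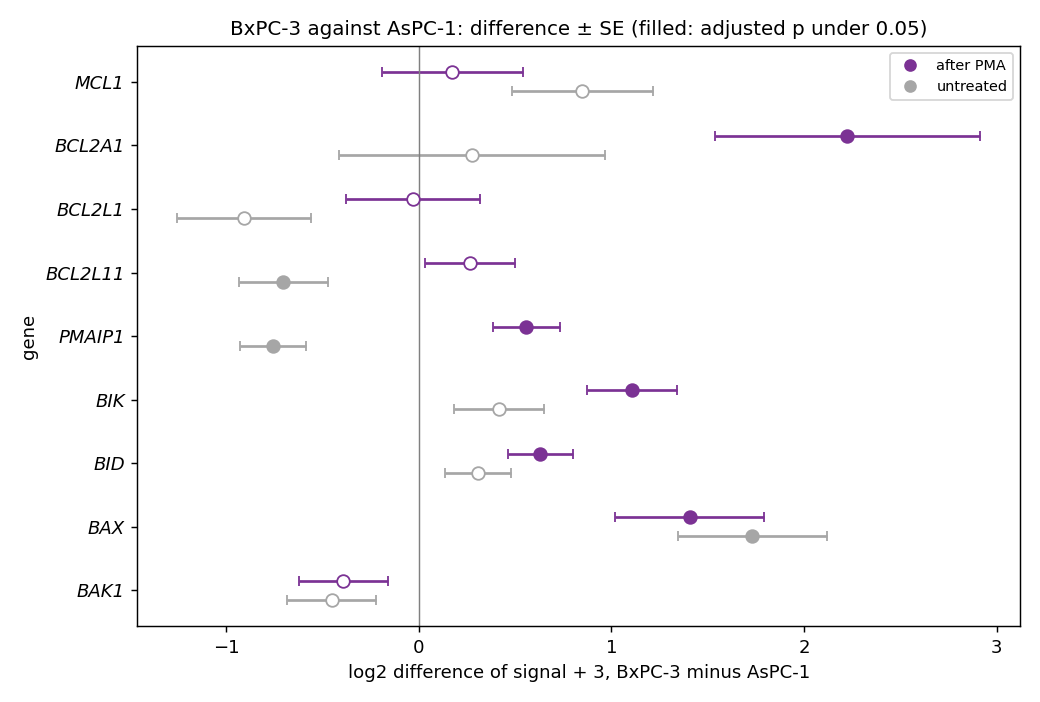
Log2 difference of signal + 3, BxPC-3 minus AsPC-1, after PMA and untreated, with the standard error of the fit. PMAIP1 lay at 0.56 after PMA and at -0.76 untreated, and BAX at 1.41 after PMA and 1.73 untreated.

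The test of whether PMA acted differently in the lines called 1 of 9 members, where 0.497% of all genes were called (0.31% with the larger change in BxPC-3). PMAIP1 responded more in BxPC-3, by 1.32 ± 0.24 on the log2 scale (limma adjusted p = 0.0341). It was called on both of its probe sets, at 1.32 and 1.43. The call was lost in 10 of the 12 fits that left out 1 array, with limma adjusted p between 0.0563 and 0.123 and differences between 1.23 and 1.40. It was kept without AsPC-1 PMA replicate 1, at 1.13 (limma adjusted p = 0.00309), and without AsPC-1 PMA replicate 3, at 1.46. Without AsPC-1 PMA replicate 1 MCL1 was called as well, with the smaller response in BxPC-3 (-1.30, limma adjusted p = 0.00212), and BCL2L1 with the larger (1.36, limma adjusted p = 0.0252). For the 8 members other than PMAIP1, calls in 1 line and not in the other therefore do not show a difference between the lines on all arrays.

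Genes that work next to these members were read from 6 lists. Among other BCL2-family genes, 0 rose and 1 fell of 12 in BxPC-3, BCL2L10, at -1.44 ± 0.40 (limma adjusted p = 0.0484). Its signal was 13.4 ± 4.18 after PMA, against 40.6 ± 2.11 untreated (SD, n = 3 each), and the mean of its probe sets gave -0.48 and was not called. The BCL2L10 call held in 2 of 12 fits without 1 array. In AsPC-1, 0 of those 12 were called, with 5 at an unadjusted p under 0.05. The apoptosome, caspase and mitochondrial factor list had 0 of 12 called in both lines, with 3 genes at an unadjusted p under 0.05 in BxPC-3 and 5 in AsPC-1. The inhibitor of apoptosis list had 0 of 6 called in both lines, with 1 such gene in BxPC-3 and 2 in AsPC-1. These counts depend on AsPC-1 PMA replicate 1. Without it, 0 rose and 1 fell among the other BCL2-family genes in BxPC-3 and 2 rose and 0 fell in AsPC-1. The apoptosome list then had 0 rises and 2 falls in BxPC-3 and 2 rises and 3 falls in AsPC-1, and the inhibitor of apoptosis list 0 calls in BxPC-3 and 1 rise in AsPC-1. Of all genes, 15.1% were then called in BxPC-3 and 19.7% in AsPC-1.

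The death receptor list had more calls, 3 rises and 1 fall of 13 in BxPC-3 and 2 rises in AsPC-1. It had 4 rises and 2 falls in BxPC-3 and 4 rises and 4 falls in AsPC-1 without that array, AsPC-1 PMA replicate 1. The share of all genes called was 6.01% in BxPC-3 and 1.94% in AsPC-1 on all arrays. Without that array it was 15.1% and 19.7%. TNFRSF10D, a TRAIL receptor that lacks a working death domain, had 1215, 976.8 and 1237 signal units in BxPC-3 PMA arrays, against 262.1, 227.3 and 160.1 in BxPC-3 untreated arrays. It rose by 2.40 ± 0.36 (limma adjusted p = 0.002) and kept this call in 12 of 12 fits without 1 array. In AsPC-1 it had 650.7, 1893 and 1843 after PMA, against 312.8, 457.3 and 578.3 untreated, a change of 1.59 ± 0.36 (limma adjusted p = 0.0424) that was called in 1 of those 12 fits. The AsPC-1 call of TNFRSF10D was also lost with the mean of probe sets (limma adjusted p = 0.0708), with no filter (0.0535) and with every probe set fitted (0.0528). Median centring (limma adjusted p = 0.0551), the fit without trend (0.100) and the AsPC-1 arrays alone (0.353) lost it as well. TNFRSF10B, a TRAIL receptor with a death domain, rose by 0.93 in BxPC-3 (limma adjusted p = 0.0366, called in 4 of 12 such fits) and by 1.10 in AsPC-1 (limma adjusted p = 0.0367, called in 1 of 12). Both TNFRSF10B calls were lost with the mean of probe sets (limma adjusted p = 0.192 in BxPC-3 and 0.160 in AsPC-1), with median centring and without trend. The AsPC-1 call of TNFRSF10B was also lost with the AsPC-1 arrays alone (limma adjusted p = 0.354). CFLAR, which restrains caspase 8, rose by 0.60 in BxPC-3 (limma adjusted p = 0.0411, called in 3 of 12 such fits), but the mean of its probe sets gave 0.36 and was not called.

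FADD, the adaptor between death receptors and caspase 8, fell in BxPC-3. Its signals were 167.2, 116.6 and 172.5 after PMA, against 478.5, 481.2 and 407.7 untreated, a change of -1.58 ± 0.37 (limma adjusted p = 0.0246) that was called in 6 of 12 fits without 1 array. In AsPC-1 FADD had 587.1, 181 and 164.5 after PMA, against 425.9, 466.4 and 562.5 untreated. There the PMA array of passage 8 was the highest of the 6 and the other PMA arrays the lowest.

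Of 9 transcription factors and regulators known to control BH3-only genes, 1 rose and 1 fell in BxPC-3. Among all genes, 6.01% were called in BxPC-3 and 1.94% in AsPC-1. ATF4, a stress factor that acts on PMAIP1, rose by 1.39 ± 0.37 (limma adjusted p = 0.0407), at 3903 ± 205 signal units after PMA, against 1485 ± 103 untreated (SD, n = 3 each). This call held in 4 of 12 fits without 1 array and was lost with median centring, with no filter, with the mean of probe sets and without trend (limma adjusted p between 0.0526 and 0.0881). MDM4, an inhibitor of p53, fell by 0.93 on the log2 scale (limma adjusted p = 0.0371, called in 5 of 12 such fits), yet the mean of its probe sets gave -0.03. In AsPC-1 FOXO1, which is known to act on BCL2L11, rose by 0.97 ± 0.19 (limma adjusted p = 0.0233). That call held in 8 of 12 fits without 1 array and was lost with the mean of probe sets (limma adjusted p = 0.0786), without trend (0.0549) and with the AsPC-1 arrays alone (0.286). Of 9 ubiquitin ligases and deubiquitinases that act on MCL1, BIM or NOXA, 0 were called in BxPC-3, with 4 at an unadjusted p under 0.05, and HUWE1, a ligase for MCL1, rose by 0.67 in AsPC-1 (limma adjusted p = 0.0427, called in 3 of 12 such fits), where the mean of its probe sets gave 0.12. With AsPC-1 PMA replicate 1 left out, the transcription factors had 2 rises and 1 fall in BxPC-3 and 3 rises in AsPC-1. The ubiquitin genes then had 1 rise and 2 falls in BxPC-3 and 2 rises and 3 falls in AsPC-1. The share of all genes called was then 15.1% in BxPC-3 and 19.7% in AsPC-1.

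The list medians in BxPC-3 lay between -0.13 for the inhibitors of apoptosis and 0.32 for the transcription factors, and in AsPC-1 between -0.24 for the death receptor list and 0.18 for the transcription factors. The medians of all tested genes stand with the counts of the members.

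For each member called after PMA, the 3 genes with the most similar profile over the 12 arrays were found by the root mean square difference of centred log2 values. For MCL1 these were HIVEP2, AMOTL2 and RELT, with differences of 0.24 to 0.30 where MCL1 itself had an SD of 0.99. For PMAIP1 they were MFHAS1, ABI1 and CSRNP2, at 0.21 to 0.25 against an SD of 0.70. BIK was nearest to GABPB1, SFPQ and RBM33 at 0.19 to 0.21, and BID to C1orf122, OSBPL2 and SUSD6 at 0.14 to 0.15. For BCL2A1 the nearest were EGR3, RND1 and HBEGF, all at 0.66, against an SD of 1.80. The arrays of 1 line and treatment share their cells, so this likeness over 12 arrays rests on 4 groups.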

How the data were processed

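The values the authors deposited are linear signal intensity, from MAS5 per the submitters' processing notes (version not given in the sources used here), for 54675 probe sets on 12 arrays. Each array's trimmed mean, without the top and bottom 2%, lay between 100.014 and 100.018. No further scaling was applied. Detection calls were not used here, and the number of arrays limits the precision.

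The 62 control probe sets were left out. Of the rest, 41091 had 1 gene symbol, 1801 several and 11721 none, and only the first kind was named. For each gene the probe set with the highest mean signal was kept, and the 16110 genes above the array's 40th percentile on 3 or more arrays were tested. Signals were turned into log2(signal + 3), which understates changes of dim genes. limma 3.58.1 (R 4.3.3) fitted a mean per group over the 12 arrays together (eBayes with trend, 8 residual degrees of freedom, two-sided, Benjamini-Hochberg threshold 0.05). The smallest exact p for 1 gene in 3 against 3 arrays is 0.1. The fit was tested on simulated data. Figures used matplotlib 3.10.9 in Python 3.11.15, and promoters came from RefSeq, with an entry for 8 of the 10 members.

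Per the labels, replicates of a group were different passages, and the same number marks the same passage within a line. Deviations from the group means correlated at -0.129 to -0.054 between the PMA and untreated arrays of a BxPC-3 passage and at 0.160 to 0.416 for AsPC-1. The block was therefore run as an alternative, and its value is given where it changes a call. P-values measure the spread between these passages.

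The members, lists and tests were chosen with earlier results of these data known. Named genes were all members, up to 3 called genes a direction from each list in each PMA comparison, and the 3 nearest profiles of each called member. Alternatives were pseudocounts of 1 and 16, median centring, quantile normalization, no filter, a stricter filter at the 60th percentile, the mean of probe sets, every probe set, the arrays of the comparison alone, eBayes without trend, the block, and leaving out each array.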

Additional observations from a re-analysis of the deposited data

Results flagged for a closer look

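PMAIP1 differed between the lines in its PMA response by the test of that difference itself. The response in BxPC-3 exceeded that in AsPC-1 by 1.32 ± 0.24 on the log2(signal + 3) scale (limma adjusted p = 0.0341). That call held in 2 of 12 fits without 1 array and was lost with median centring and without trend. The PMA array was above its untreated partner in 3 of 3 passages of both lines, though by only 0.05 at passage 8 of AsPC-1. The untreated levels also differed, at 332 ± 14.9 signal units in BxPC-3 and 564 ± 9.88 in AsPC-1 (SD, n = 3 each). The groups of 3 arrays were too small to test single arrays as outliers.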

How the results depend on the processing

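Over all alternatives, 1025 values and counts were rated as the same. A value was so rated where it kept its side of the threshold. A count of members was so rated also where it moved by a small ratio, such as from 4 to 6 in BxPC-3 with the block. Of the rest, 53 lost a call or fell further in count, 30 gained and 3 turned with a call on one side. Among the 1025, 35 values of 6 members changed sign while not called under either setting, 18 of them of BAX or BAK1 and 5 of MCL1 between the lines after PMA. The 3 that turned with a call were MCL1 between the lines after PMA, at -0.45 without AsPC-1 PMA replicate 1 (its range without 1 array was -0.45 to 0.48) and at -0.90 on another probe set, and BCL2L11 between untreated lines, at 0.19 on another probe set. With 1 array left out, the number of members called after PMA was 2 to 6 in BxPC-3 and 0 to 6 in AsPC-1. It was 3 to 5 between the lines after PMA, 2 to 5 untreated, and 0 to 3 for the difference of the responses. Of all 16110 genes, these fits called 4348 to 6592 between the lines after PMA and 4183 to 6597 untreated. Their counts over all genes for the PMA responses and the difference follow in the next paragraph. With eBayes without trend or with the arrays of the comparison alone, 0 members were called in AsPC-1. Median centring and the arrays of the comparison alone each left 3 members called between the lines after PMA. They called 5310 and 4389 of all 16110 genes there, and median centring lost BID and PMAIP1. Quantile normalization and the arrays of the comparison alone gave 5 members untreated, where they called 5566 and 5937 genes. The difference of responses had 0 members called with median centring, where PMAIP1 stood at 1.23 (limma adjusted p = 0.202), and 0 without trend (limma adjusted p = 0.0960). The causes were not tested.

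The replicate block, which pairs passages, called 6 members in BxPC-3 and 1 in AsPC-1 after PMA. It changed no call of a member other than MCL1 and BCL2L1 in BxPC-3 and BCL2L1 between untreated lines. Between lines the block shares only a number. Over all genes it called 1681 in BxPC-3, against 968 without it, and 899 in AsPC-1, against 313. The arrays of the comparison alone called 3574 in BxPC-3 and 0 in AsPC-1, where the mean of probe sets called 151 and eBayes without trend 121. For the difference of responses the block called 128 genes and median centring 42, against 80. Leaving out 1 array called 330 to 2426 genes in BxPC-3, 60 to 3167 in AsPC-1 and 9 to 724 for the difference, with the highest counts without AsPC-1 PMA replicate 1. Median centring moved the median change of all genes to 0.13 in both lines. Signals near the floor, as for BCL2A1 untreated, limit the size of a fold.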

Other observations

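BCL2, CFLAR and BCL2L15, neighbours of the members, are described because their signals differed between the lines, and they were chosen after their values were seen. BCL2, the founding guardian of the family, had 70.3, 82.6 and 72.6 signal units in BxPC-3 PMA arrays, against 12.8, 6.10 and 6.47 in AsPC-1 PMA arrays. In untreated cells it had 82.1, 82 and 96.7 in BxPC-3, against 6.93, 0.28 and 3.43 in AsPC-1, the last all below the filter. Of the AsPC-1 PMA arrays 1 was above it. BCL2 thus entered the tests through BxPC-3, and a log2 difference against signals this low has no firm size, so none is given. Its 4 tested probe sets did not agree in direction between the lines.

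CFLAR, which codes for the caspase 8 inhibitor FLIP, ran the other way. It had 239.1, 253.9 and 296.4 signal units in BxPC-3 PMA arrays, against 3439, 3181 and 3202 in AsPC-1 PMA arrays. Untreated it had 180, 166.3 and 167.9 in BxPC-3, against 1679, 2236 and 2431 in AsPC-1. The log2 difference was -3.63 after PMA and -3.59 untreated (limma adjusted p = 1.59e-09 and 1.65e-09). Of 13 CFLAR probe sets, 12 were called lower in BxPC-3 after PMA and 10 untreated. BCL2L15, a less studied family member, was lower in BxPC-3 as well, at 23.1 ± 8.18 against 106 ± 39.3 in AsPC-1 after PMA and at 15.8 ± 4.49 against 139 ± 55.2 untreated (SD, n = 3 each).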
